A study of Mus musculus with 9 samples.

Results

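The results concern 10 genes of the Hippo-YAP pathway in cultured 4T1 cells, a mouse mammary carcinoma line, out of the 24421 genes of the count table. The 10 genes were taken from a written list, and all 10 were found by symbol. They comprise 7 target genes of YAP and TEAD, namely Ctgf (now Ccn2), Cyr61 (now Ccn1), Ankrd1, Amotl2, Ajuba, Lats2 and Axl, and 3 regulators, namely the DNA-binding factor Tead1 and the coactivators Yap1 and Wwtr1, which encodes TAZ. The list carries no threshold, but the genes were chosen by their RNA levels across the 3 conditions, which were known from earlier work on these libraries. These values are therefore given as a description, with no p-value. Whether any of these genes is past a threshold, singly or in a count, carries no weight as evidence.

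Poly(A) RNA was sequenced from 9 libraries, 3 in each of 3 conditions. The conditions were 3D spheroids on soft agar without added palmitate (0 µM) and, with 75 µM palmitate in the medium, 3D spheroids and 2D monolayers. All cells were unmodified 4T1 cells kept for 5 days in medium with serum, so that every condition also contained the fatty acids of serum. Palmitate could be compared in 3D only, since 2D cultures lacking it were not analysed here. The labels number the libraries of a condition without saying whether they came from separate cultures, and p-values then measure only the spread between these libraries. In such bulk RNA, fewer cells of a kind and less RNA per cell cannot be told apart.

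Total counts ranged from 6595514 to 31177756 per library, the lowest being replicate 3 of the 3D cultures with palmitate. All 10 genes passed the filter on low counts, along with 12575 genes in all. The 5 epithelial markers listed (Epcam, Krt8, Krt18, Krt7 and Cdh1) were high in every library, with summed levels of 3788 to 4097 CPM (counts scaled to a common library total) in 2D and 4802 to 5019 CPM in 3D. Their members differed in direction, with Epcam higher in 3D than in 2D with palmitate (707 ± 38.7 against 263 ± 5.49 CPM) and Krt7 lower (607 ± 50.9 against 866 ± 50.4 CPM, SD, n = 3). None of the 5 leukocyte or 3 endothelial markers reached more than 11 counts in a library, and Cd3e and Adgre1 were at 0 throughout. Among the 3 fibroblast markers, Pdgfrb and Thy1 had at most 2 counts, whereas Pdgfra was expressed at 98.8 ± 10.1 CPM in 3D and 30.4 ± 0.823 CPM in 2D cultures with palmitate (SD, n = 3). The summed level of the 3 fibroblast markers was 90.7 to 110 CPM in the 3D and 29.5 to 31.2 CPM in the 2D libraries. The part of these differences in the results was not tested.

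The Hippo pathway is a kinase cascade that restrains growth. The kinases MST1 and MST2 (Stk4 and Stk3), with the scaffold SAV1, activate LATS1 and LATS2, which phosphorylate YAP and TAZ and hold them in the cytoplasm. When the kinases are inactive, as in cells that are spread on a stiff surface at low density, YAP and TAZ enter the nucleus and act with the TEAD factors on target promoters. The activity of YAP and TAZ is therefore set largely by phosphorylation and location, which RNA-seq does not measure, and the RNA of their target genes is the usual readout. Ctgf and Cyr61 encode secreted matricellular proteins, Ankrd1 a nuclear ankyrin-repeat protein, and Axl a receptor tyrosine kinase. Amotl2, Ajuba and Lats2 act in the Hippo pathway itself, Amotl2 and Lats2 as inhibitors of YAP that are induced by it and Ajuba as a LIM protein that restrains the LATS kinases.

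TEAD factors bind the hexamer CATTCC, which reads GGAATG on the other strand. Promoter sequences of RefSeq (build GRCm38.p6, from 250 bases before to 50 after each annotated start) were available for 8 of the 10 genes. For Ctgf and Tead1 there was none, so that nothing is known here of their promoters. All 8 held at least 1 TEAD hexamer in either direction, whereas 16.6% of the 27025 genes with such a sequence did. Counted by annotated start, of which a gene may have several, 9 of 10 windows of these genes and 14.7% of all 32851 windows held one. The hexamers lay 103 bases before the start in Cyr61, 65 in Amotl2, 186 and 164 in Ajuba, 210 and 123 in Ankrd1 and 233 in Axl, as well as 141 in Yap1 and 136 in Wwtr1. In Lats2 the hexamer lay 4 bases after the start. These starts are those of RefSeq. By the GENCODE vM21 gene positions given further on, the hexamers of Ankrd1, Amotl2 and Lats2 lay inside the gene, not before it. The heptamer TGANTCA of the AP-1 factors, which reads the same on both strands and can share bases with a hexamer, was found in 0 of the 8 genes and in 8.97% of all genes. A match of letters is a description of the sequence and does not show binding. Of the other pathway genes described further on, 2 of 10 kinases and partners, 3 of 9 upstream regulators, 4 of 6 TEAD partners and 3 of 13 other targets with a promoter sequence held the hexamer. The hexamer is what the 8 genes with a promoter sequence shared, and in Lats2 it lay after the start. The stretches before the start that hold it are printed here. They are written 5′ to 3′ on the strand of the gene, with the hexamers in capitals.
Cyr61, chr3:145650063-145650108, minus strand: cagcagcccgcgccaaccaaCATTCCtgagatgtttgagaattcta
Ankrd1, chr19:36119942-36120074, minus strand: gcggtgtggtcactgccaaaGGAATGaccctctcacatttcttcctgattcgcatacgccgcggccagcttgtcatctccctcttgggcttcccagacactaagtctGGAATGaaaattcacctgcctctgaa
Amotl2, chr9:102717719-102717764, plus strand: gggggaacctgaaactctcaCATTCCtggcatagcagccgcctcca
Ajuba, chr14:54577800-54577867, minus strand: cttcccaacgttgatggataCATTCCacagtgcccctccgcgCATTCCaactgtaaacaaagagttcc
Axl, chr7:25788941-25788983, minus strand: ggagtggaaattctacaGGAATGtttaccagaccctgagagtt
Yap1, chr9:8004712-8004757, minus strand: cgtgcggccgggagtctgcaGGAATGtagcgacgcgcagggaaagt
Wwtr1, chr3:57576021-57576066, minus strand: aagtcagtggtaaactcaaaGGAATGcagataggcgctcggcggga

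**Figure D1:**
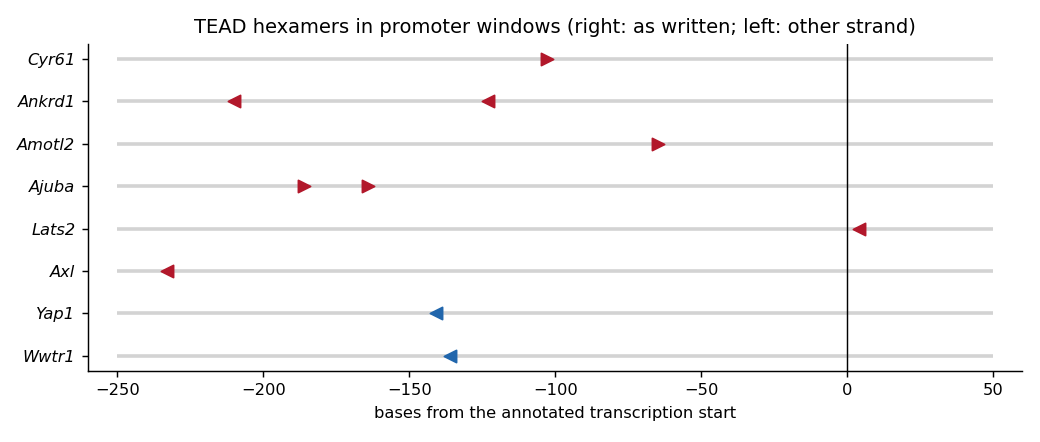
Positions of the TEAD hexamer in the promoter windows of 8 of the 10 genes (red, target genes; blue, Yap1 and Wwtr1), in bases from the annotated transcription start at 0. Triangles to the right mark CATTCC and triangles to the left GGAATG on the strand of the gene. One window of 300 bases is drawn per gene as a grey line, without the second window of Lats2, which holds none, and that of Wwtr1, which holds the same hexamer, and each drawn window holds 1 or 2 hexamers, from 233 bases before the start in Axl to 4 after it in Lats2.

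The first comparison asked how spheroids differ from monolayers when both receive palmitate. The target genes were lower in 3D than in 2D, Ctgf by the most and Lats2 by the least, while Wwtr1 was higher in 3D and the RNA of Yap1 and Tead1 differed by little. Of the 10 genes, 8 were past the threshold of edgeR's quasi-likelihood test (an adjusted p-value under 0.05), with 7 lower and 1 higher, where 68.3% of all genes tested were past it, 33.9% lower and 34.5% higher. The same 8 genes had no overlap between the 3D and 2D libraries with palmitate, 7 lower and 1 higher, beside 69.4% of all genes tested, 34.8% lower and 34.6% higher. Since the genes were chosen with these values known, nothing is read from either count. The median log2 fold change of the 7 targets was -2.37, beside 0.01 for all genes tested.

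Ctgf is a short gene of chromosome 10 (24595442 to 24598683 in GRCm38, the build of all positions given). Its level was 10.5, 8.59 and 9.28 CPM in replicates 1, 2 and 3 of the 3D cultures without palmitate, 17.1, 18.3 and 14.5 CPM in those with palmitate, and 282, 284 and 269 CPM in the 2D cultures. All 2D libraries were far above all 3D libraries, and the 3 groups did not overlap. Ctgf in 3D with palmitate was at 5.98% of its 2D level, a log2 fold change of -4.04 (standard error, SE, 0.0859), and 0.795% of the genes tested had a change of larger size. The counts behind it were at least 95 in a library.

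Cyr61, a close relative of Ctgf on chromosome 3 (145646976 to 145649981), had levels of 29.3, 33.0 and 28.0 CPM in 3D without palmitate, 60.6, 49.7 and 44.6 CPM in 3D with palmitate, and 565, 530 and 593 CPM in 2D. As with Ctgf, the groups were in the order 3D without palmitate, 3D with palmitate and 2D, with no overlap. Between 3D and 2D the log2 fold change was -3.42 (SE 0.102), and the level in 3D with palmitate was 9.18% of that in 2D. The ratio of Ctgf to Cyr61 per transcript length was 0.264 ± 0.0352 in 3D with palmitate and 0.403 ± 0.0331 in 2D (SD, n = 3), and the 2 groups of ratios did not overlap.

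Ankrd1, on chromosome 19 (36111961 to 36120099), had 25.7, 30.5 and 27.01 CPM in 3D without palmitate, 30.1, 29.6 and 40.3 CPM in 3D with palmitate, and 276, 278 and 305 CPM in 2D. The 2D libraries were again the highest, while the 3D groups overlapped and replicate 3 with palmitate stood above the other two. Its log2 fold change was -3.14 (SE 0.103). Ankrd1 in 3D with palmitate was at 11.6% of its 2D level, so that the 3 target genes with the largest changes were all at less than 12% of it.

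The targets that act in the pathway itself followed with smaller changes. Amotl2, on chromosome 9 (102716672 to 102733418), had 22.5, 24.4 and 24.8 CPM in 3D without palmitate, 37.7, 34.7 and 32.9 CPM in 3D with palmitate, and 185, 181 and 185 CPM in 2D, a log2 fold change between 3D and 2D of -2.37 (SE 0.0690). Ajuba, on chromosome 14 (54567472 to 54577558), had 46.8, 51.3 and 48.5 CPM in 3D without palmitate, 56.2, 50.7 and 49.9 CPM in 3D with palmitate, and 191, 198 and 200 CPM in 2D, a log2 fold change of -1.90 (SE 0.0676). For both, every 2D library lay above every 3D library, and the 3D groups overlapped for Ajuba only. Lats2, also on chromosome 14 (57689662 to 57758388), encodes a kinase of the cascade, and its level was 26.6, 28.6 and 28.4 CPM in 3D without palmitate, 30.2, 29.9 and 30.3 CPM in 3D with palmitate, and 50.04, 48.1 and 47.8 CPM in 2D. This was the smallest change among the 7 targets, with a log2 fold change of -0.69 (SE 0.0661) and 3D with palmitate at 62.0% of the 2D level.

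Axl, on chromosome 7 (25757273 to 25788705), was the most abundant of the 7 targets in every condition. Its level was 547, 590 and 589 CPM in 3D without palmitate, 630, 634 and 611 CPM in 3D with palmitate, and 1322, 1335 and 1278 CPM in 2D. The 3 groups did not overlap, with a log2 fold change of -1.07 (SE 0.0569). Axl in 3D with palmitate was at 47.7% of its 2D level, so that the targets in 3D ranged from 5.98% of the 2D level for Ctgf to 62.0% for Lats2.

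Wwtr1 went the other way. Its level was 577, 552 and 575 CPM in 3D without palmitate, 511, 513 and 587 CPM in 3D with palmitate, and 283, 272 and 256 CPM in 2D, on chromosome 3 (57455649 to 57575910). Every 3D library lay above every 2D library, and the 3D groups overlapped. Its log2 fold change was 0.99 (SE 0.0679), so that the RNA of this coactivator in 3D with palmitate was at 199% of its 2D level.

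Yap1, on chromosome 9 (7931999 to 8004596), had 226, 250 and 242 CPM in 3D without palmitate, 223, 234 and 247 CPM in 3D with palmitate, and 250, 252 and 231 CPM in 2D. Tead1, on chromosome 7 (112679318 to 112906807), had 192, 224 and 215 CPM in 3D without palmitate, 195, 204 and 223 CPM in 3D with palmitate, and 232, 246 and 207 CPM in 2D. For both genes the 3 groups overlapped, and neighbouring means differed by less than the spread of their libraries. Between 3D and 2D the log2 fold change was -0.06 for Yap1, with a 95% interval from -0.20 to 0.08. For Tead1 it was -0.14, with an interval from -0.32 to 0.03. Both values depended on the processing. After the trends of each library with GC content and transcript length had been removed, they were -0.26 for Yap1 and -0.57 for Tead1, and both were then past the adjusted threshold. Tead1 was also past it without the filter on low counts (-0.17), without replicate 3 of the 3D cultures with palmitate (-0.20) and without replicate 3 of the 2D cultures (-0.21).

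**Figure D2:**
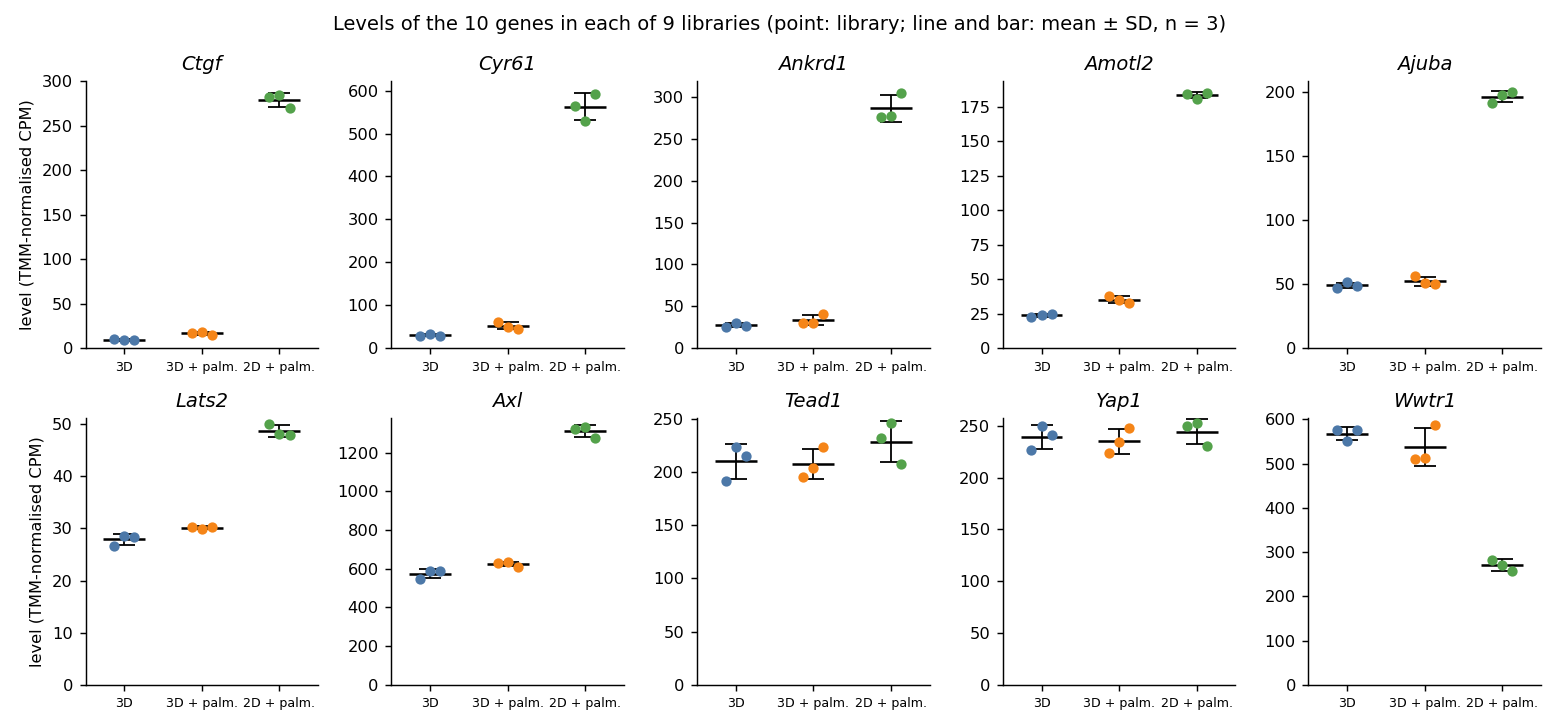
Levels of the 10 genes in TMM-normalised CPM in each of the 9 libraries (points) of 3D cultures without palmitate, 3D cultures with palmitate and 2D cultures with palmitate, with the mean and SD of 3 libraries, on linear axes from 0. The 7 targets are higher in all 2D than in all 3D libraries, Wwtr1 is lower in 2D, and the groups of Tead1 and Yap1 overlap.

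The order of the genes by level therefore differed between 2D and 3D cultures. Levels were compared between genes as CPM per kilobase of the longest annotated transcript (RPKM), which understates a gene that uses a shorter transcript. In 2D the order of mean RPKM was Axl (308), Cyr61 (279), Ankrd1 (142), Ctgf (112), Ajuba (57.8), Wwtr1 (57.5), Yap1 (46.2), Amotl2 (41.5), Tead1 (22.9) and Lats2 (9.37). The SD was at most 15.7 RPKM for any of them, and Ajuba and Wwtr1 could not be told apart. In 3D with palmitate the order was Axl (147), Wwtr1 (114), Yap1 (44.5), Cyr61 (25.6), Tead1 (20.8), Ankrd1 (16.5), Ajuba (15.4), Amotl2 (7.93), Ctgf (6.68) and Lats2 (5.81). There the libraries of Cyr61 and Tead1, of Tead1 and Ankrd1 and of Ankrd1 and Ajuba overlapped, and those of the other neighbours in this order did not. The coactivators thus stood above all targets but Axl in 3D, and Ctgf went from a place above both coactivators in 2D to one below both in 3D.

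Across all 9 libraries the 7 targets ran closely together, with Pearson correlations of log2 CPM between 0.987 and 0.999 for each pair, and Wwtr1 ran against them with correlations from -0.994 to -0.982. Yap1 and Tead1 had a correlation of 0.947 with each other and between 0.254 and 0.583 with the targets. These values describe the contrast between 2D and 3D libraries more than any finer pattern, since 1635 other genes had a correlation above 0.95 with Ctgf. The 3 genes most like Ctgf over the 9 libraries were Prss23, Mthfd2 and Pawr, with correlations of 0.9995, 0.9992 and 0.9991. Those most like Yap1 were Cep192, Nucks1 and Ptk2, with 0.936, 0.928 and 0.921, and 0 genes outside the list were above 0.95.

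The balance of the 2 coactivators differed with culture form. The ratio of Wwtr1 to Yap1 in RPKM was 2.87, 2.49 and 2.68 in the 3D libraries without palmitate, 2.57, 2.47 and 2.67 in those with palmitate, and 1.27, 1.21 and 1.25 in the 2D libraries. Every 3D ratio lay above every 2D ratio, and the 3D groups overlapped. The summed level of both coactivators was 159 ± 11.4 RPKM in 3D with palmitate and 104 ± 4.90 RPKM in 2D (SD, n = 3), with no overlap.

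**Figure D3:**
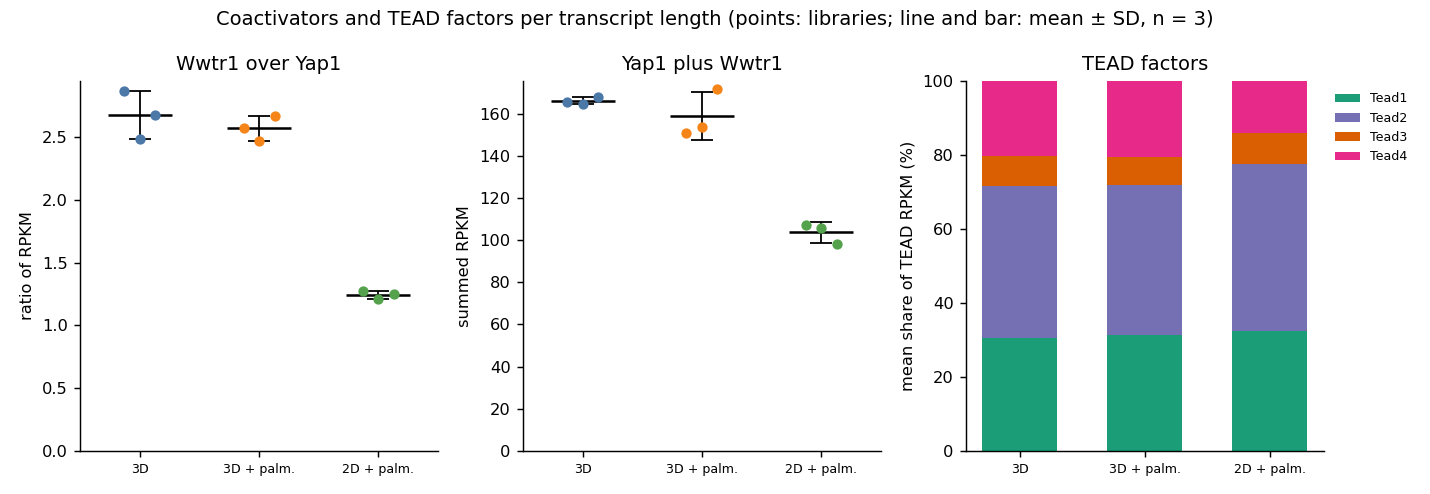
Ratio of Wwtr1 to Yap1 (left) and their sum (middle) in RPKM by library, with the mean and SD of 3 libraries, and the mean share of each TEAD factor in the summed RPKM of the 4 factors (right). The ratio and the sum are higher in all 3D libraries than in all 2D libraries, and the share of Tead4 is 20.2% and 20.5% in the 3D groups and 14.2% in 2D.

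The second comparison asked what added palmitate changes within 3D spheroids. Ctgf, Cyr61 and Amotl2 were higher with palmitate, and the 3 regulators differed by little. In edgeR's test 3 of the 10 genes were past the adjusted threshold, all of them higher, beside 2.19% of all genes tested in either direction and 1.38% in the higher direction. That background rests on 173 genes higher and 102 lower, and scaling by library size only gave 106 higher and 121 lower. The count of 3 was the same under each alternative processing tried and with each library left out. As the genes were chosen with these values known, nothing is read from this count or its stability.

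The log2 fold change with palmitate was 0.83 for Ctgf (SE 0.0991), 0.81 for Cyr61 (SE 0.103) and 0.57 for Amotl2 (SE 0.0735). For these 3 genes every library with palmitate lay above every library without it, as in the values given for each gene, and 1.503%, 1.65% and 3.87% of the genes tested had a change of larger size. On the scale of CPM the differences between the means were small beside the gap to 2D. As a share of the level in 2D with palmitate, Ctgf went from 3.395% to 5.98%, Cyr61 from 5.35% to 9.18% and Amotl2 from 13.01% to 19.1%. The first share of each gene thus sets cultures apart by palmitate as well as by form.

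The other 4 targets were not past the threshold. Ankrd1 differed by a log2 fold change of 0.23, with a 95% interval from 0.003 to 0.46, and its groups overlapped. Without replicate 3 with palmitate, the highest library, the value was 0.11, and with the share of Rn45s, the ribosomal RNA precursor, in the fit it was 0.37. Axl differed by 0.12 (interval -0.0009 to 0.24), Lats2 by 0.12 (-0.03 to 0.26) and Ajuba by 0.11 (-0.04 to 0.26). Axl and Lats2 were higher in every library with palmitate, as were Ctgf, Cyr61 and Amotl2, which makes 5 of the 10 genes without overlap. Among all genes tested, 18.6% had no overlap, 10.4% higher and 8.19% lower. The groups of Ajuba overlapped.

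Among the regulators, the log2 fold change with palmitate was -0.03 for Yap1 (interval -0.17 to 0.11), -0.02 for Tead1 (-0.19 to 0.15) and -0.08 for Wwtr1 (-0.23 to 0.06). The groups overlapped for all 3, and the intervals do not reach the size of the change of Ctgf, Cyr61 or Amotl2 in either direction. The share of Rn45s was 1.81% to 5.38% in the libraries with palmitate and 1.77% to 2.77% in those without it. With this share in the fit, the log2 fold change of Ctgf was 0.73. Both comparisons share the 3D libraries with palmitate, so that their values for a gene are not independent.

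**Figure D4:**
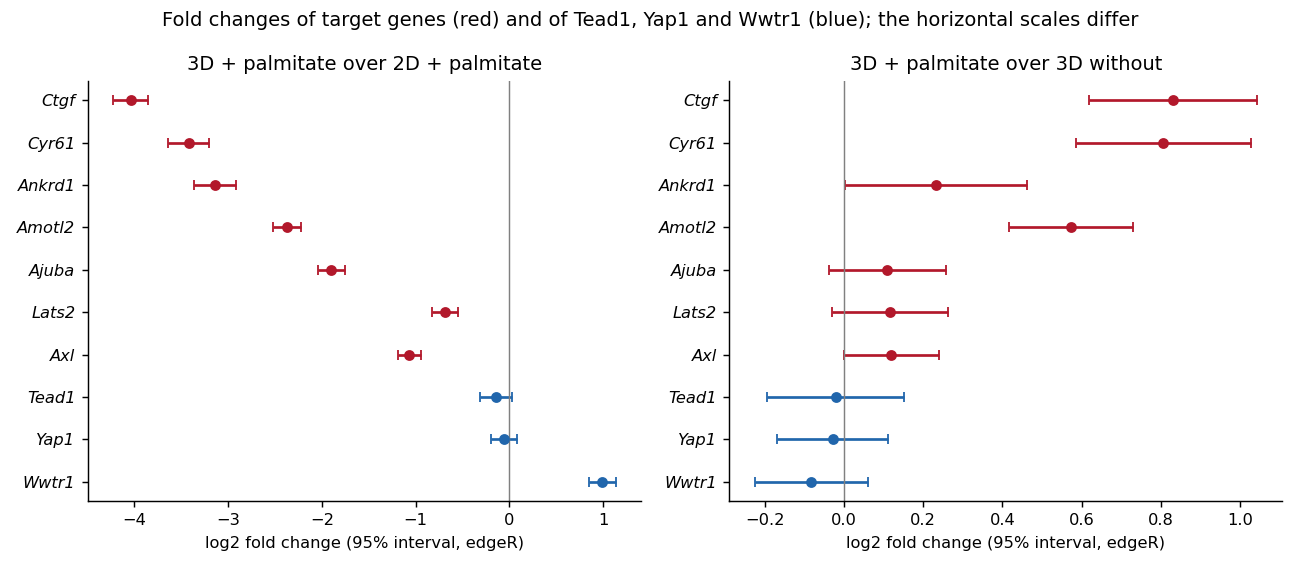
Log2 fold changes of the 10 genes with 95% intervals from edgeR, for 3D over 2D cultures with palmitate (left) and for 3D cultures with over without palmitate (right), with target genes in red and regulators in blue. The horizontal scales differ. In the left panel the targets lie between -4.04 and -0.69 and Wwtr1 at 0.99, and in the right panel Ctgf, Cyr61 and Amotl2 lie between 0.57 and 0.83 and the other 7 genes between -0.08 and 0.23.

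Other genes of the pathway were tested from 4 written lists that do not include the 10 genes. Of 52 genes listed, 43 passed the filter on low counts, and 37 of these, or 86.0%, differed between 3D and 2D in edgeR's test, 20 higher and 17 lower, beside 68.3% of all genes tested (34.5% higher and 33.9% lower). After removal of the GC and length trends the split was 16 higher and 22 lower. The median log2 fold change was 0.08, beside 0.01 for all genes tested. These lists too were drawn up with earlier results of these data known, so that their counts and p-values are no independent evidence of a direction, and no test compared the lists.

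Among 12 Hippo kinases and their direct partners, 8 were higher in 3D, 3 were lower and 1 did not pass the test, which makes 91.7% past it beside 68.3% of all genes (34.5% higher and 33.9% lower). Mob1a, the cofactor that activates the LATS kinases, rose by a log2 fold change of 1.06 (SE 0.141, adjusted p = 1.05e-05 in edgeR), from 47.8 ± 9.63 CPM in 2D to 101 ± 18.6 CPM in 3D with palmitate (SD, n = 3). Map4k3 and Taok1, kinases that can act on LATS beside MST1 and MST2, rose by 0.88 and 0.74 (adjusted p = 1.50e-07 and 7.31e-06 in edgeR), the latter by 0.30 once the GC and length trends were removed. Map4k2, another kinase of this kind, had a log2 fold change of -0.24 (adjusted p = 0.0265 in edgeR), or -0.47 without these trends. It was no longer called without replicate 2 or 3 of the 3D cultures with palmitate (-0.21 and -0.19), without replicate 2 or 3 of the 2D cultures (-0.23 for each) and with the share of the ribosomal RNA precursor Rn45s in the fit (-0.22). Among the kinases at the centre of the cascade, Lats1 had a log2 fold change of 0.34 and Stk4 of 0.25 (adjusted p = 0.00284 and 0.0168 in edgeR), but in the fit free of GC and length trends they were at 0.03 and 0.04 and no longer past the threshold. The call of Stk4 was also lost in the absence of replicate 2 of the 3D cultures with palmitate (0.23) or replicate 3 of the 2D cultures (0.18). Stk3 had -0.29 (adjusted p = 0.0173 in edgeR) with overlapping groups, and among the 3D libraries with palmitate it was no longer called when replicate 1 (-0.17) or replicate 2 (-0.26) was left out, while it was at -0.43 when replicate 3 was left out. The scaffold Sav1 had a log2 fold change of 0.08 (interval -0.07 to 0.22) and did not pass the test, except in the fit free of GC and length trends (0.14). Lats1 stood well above Lats2 in every condition, at 25.7 RPKM against 5.81 RPKM in 3D and 20.1 against 9.37 in 2D with palmitate.

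Of 11 upstream regulators, 8 were tested, of which 4 were higher in 3D, 3 were lower and Nf2 did not pass the test. This makes 87.5% past it, beside 68.3% of all genes (34.5% higher and 33.9% lower). Amotl1, a relative of Amotl2 that also binds YAP, rose by a log2 fold change of 1.01 (SE 0.0844, adjusted p = 8.90e-08 in edgeR), from 332 ± 33.2 CPM in 2D to 667 ± 47.6 CPM in 3D with palmitate. This is opposite in direction to Amotl2. The junctional LIM protein gene Limd1 rose by 0.61 and the large cadherin Fat1 by 0.68 (adjusted p = 3.54e-07 and 1.72e-06 in edgeR). Free of the GC and length trends, the values of Amotl1 and Fat1 were 0.59 and 0.18. Wwc1, which encodes the scaffold KIBRA, fell by 0.60, Frmd6 by 0.48 and Wwc2 by 0.22 on the log2 scale (adjusted p = 2.98e-06, 3.09e-05 and 0.0215 in edgeR). Wwc2 was at -0.61 free of these trends, and it was no longer called without replicate 2 of the 3D cultures with palmitate (-0.22) or replicate 1 or 2 of the 2D cultures (-0.20 and -0.16). Nf2, which encodes merlin, was at 190 ± 9.78 CPM in 3D and 192 ± 16.3 CPM in 2D with palmitate. Its log2 fold change of -0.02 (interval -0.17 to 0.13) became -0.20, past the threshold, free of the trends. Dchs1 and Wtip had no counts in any library, and Fat4 had at most 3.

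The TEAD family had unequal changes. Tead2 was the most abundant TEAD factor per length, with 40.7% ± 0.909 of the summed TEAD RPKM in 3D with palmitate and 45.03% ± 1.90 in 2D (SD, n = 3), ahead of Tead1 with 31.3% ± 2.40 and 32.5% ± 2.36. This order and the shares rest on longest transcripts of 9964 bases for Tead1 and 3396 for Tead2. Before division by length Tead1 was the higher, at 207 against 91.7 CPM in 3D and 228 against 108 CPM in 2D with palmitate. Tead2 fell by a log2 fold change of -0.23 and Tead4 rose by 0.46 (adjusted p = 0.00395 and 3.06e-05 in edgeR). The share of Tead4 was 20.7%, 20.8% and 20.02% in the 3D libraries with palmitate and 14.7%, 14.0% and 13.9% in the 2D libraries, with no overlap. Tead3 did not pass the test at -0.18 (interval -0.44 to 0.07), except without replicate 1 of the 3D cultures with palmitate (-0.38) and in the fit free of GC and length trends (-0.23). The summed RPKM of the 4 factors was 66.4 ± 0.503 in 3D and 70.5 ± 1.405 in 2D with palmitate.

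The vestigial-like proteins bind TEAD at the surface that YAP uses, and VGLL4 is known to compete with YAP. Vgll4 had 29.3, 26.9 and 28.3 CPM in 3D with palmitate and 14.4, 16.0 and 15.2 CPM in 2D, and rose by a log2 fold change of 0.88 (SE 0.0793, adjusted p = 1.83e-07 in edgeR). Vgll3 had 1.36, 2.43 and 1.23 CPM in 3D with palmitate, from 8 to 37 counts, and 8.68, 8.91 and 7.62 CPM in 2D. It fell by 2.33 on the log2 scale (SE 0.215, adjusted p = 2.43e-07 in edgeR). The 2 cofactors thus moved in opposite directions between culture forms. Vgll1 and Vgll2 had no counts in any library.

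Of the 22 other genes often used as YAP and TAZ targets, 18 were tested, and 6 were higher in 3D, 9 were lower and 3 did not pass the test. This makes 83.3% past it, beside 68.3% of all genes (34.5% higher and 33.9% lower). The median of their log2 fold changes was -0.33, beside 0.01 for all genes. Tgfb2, a TGF-beta ligand, and Edn1, which encodes endothelin, were among the 3 lower genes with the smallest p. Tgfb2 fell by 2.55 (SE 0.144, adjusted p = 1.47e-09 in edgeR), from 12.9 ± 0.690 CPM in 2D to 2.34 ± 0.493 CPM in 3D. Edn1 fell by 3.14 on the log2 scale (SE 0.213, adjusted p = 1.01e-08 in edgeR), from at most 193 counts in a 2D library to between 2 and 23 in 3D with palmitate. The higher genes with the smallest p were Areg, a ligand of the EGF receptor, Nt5e, an ecto-nucleotidase, and the matricellular gene Thbs1. Areg rose by 1.83 (SE 0.0778, adjusted p = 6.80e-11 in edgeR), from 65.0 ± 2.29 CPM in 2D to 232 ± 21.98 CPM in 3D. Nt5e rose by 1.11 and Thbs1 by 0.80 (adjusted p = 8.16e-08 and 1.01e-07 in edgeR), and Thbs1 by 0.53 free of the GC and length trends. Foxf2, Ccdc80, Igfbp3 and Rbms3 had at most 5 counts in a library.

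**Figure D5:**
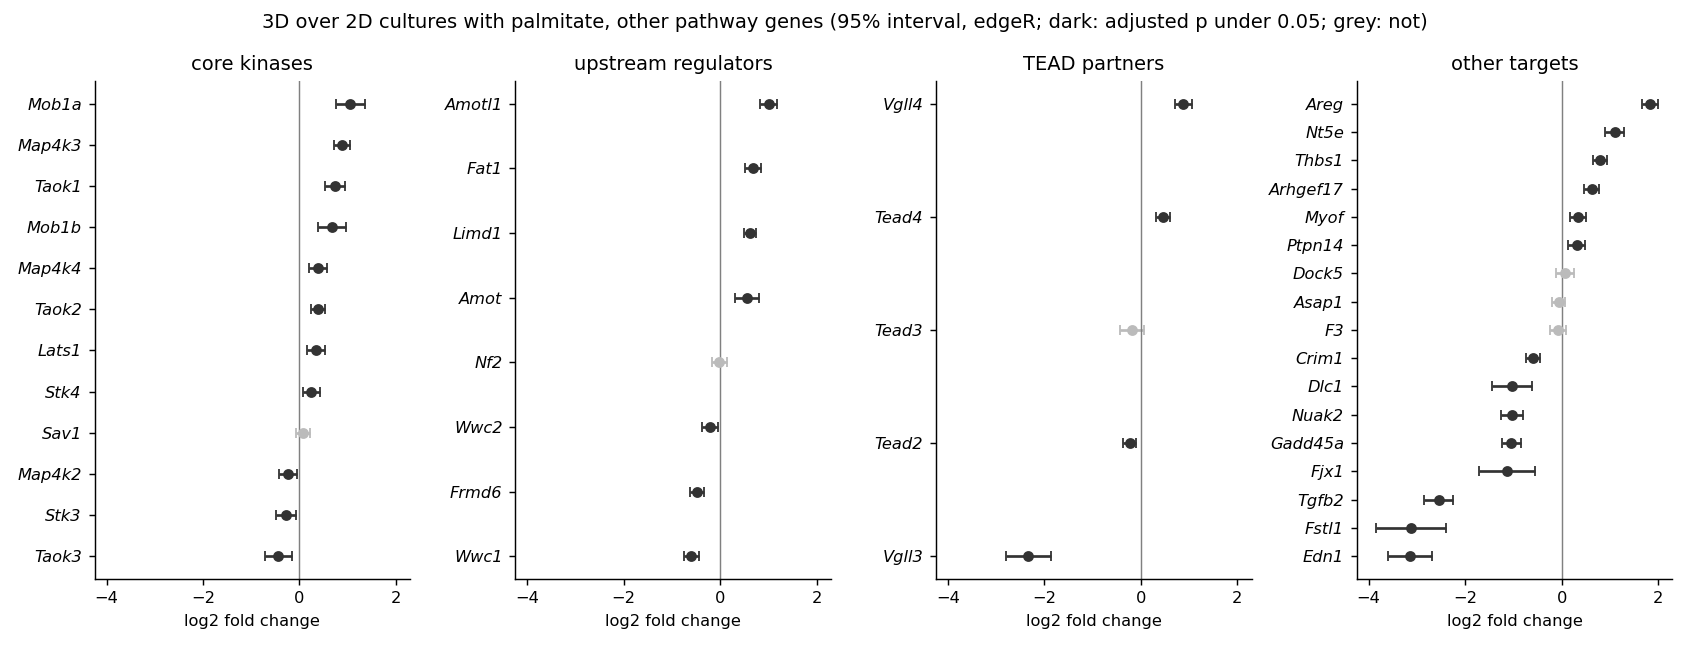
Log2 fold changes of 3D over 2D cultures with palmitate, with 95% intervals from edgeR, for the tested genes of the 4 other pathway lists, except 1 gene of the other targets (dark, adjusted p under 0.05; grey, not). The kinases lie mostly above 0, and the other target genes spread from Edn1 at -3.14 to Areg at 1.83.

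With palmitate in 3D, 0 of the same 43 genes were past the adjusted threshold in edgeR, beside 2.19% of all genes tested. An unadjusted p under 0.05 was found for 9 of the 43, 5 higher and 4 lower, beside 17.3% of all genes, 10.3% higher and 6.99% lower. DESeq2 called 1 of them, Thbs1. The smallest adjusted p in edgeR was 0.0745, for Thbs1, whose log2 fold change was -0.25 (SE 0.0670). It was chosen after its values were seen. Thbs1 had 1408, 1287 and 1403 CPM without and 1110, 1176 and 1171 CPM with palmitate, and the groups did not overlap. Without replicate 3 of the 3D cultures with palmitate, the smallest library, 5 of the 43 genes were past the threshold, among them Thbs1 at adjusted p = 0.0148 in edgeR, while 1901 genes were past it in the whole table.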

How the data were processed

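RNA was extracted with TRIzol and libraries were made with a stranded mRNA kit. The authors cleaned the single-end reads with fastq-mcf, checked them with FastQC 0.11.9, aligned them to GRCm38 with HISAT2 2.1.0 and deposited raw read counts per gene from HTSeq-count, without normalization. The annotation release and strand setting are not given in the sources used here. In GENCODE vM21 other genes overlap Ctgf, Lats2, Tead1, Wwtr1 and Yap1, with an overlap on the same strand for Lats2 and Tead1 only. None of these other genes was in the count table under its GENCODE name. Reads shared with them could have been merged into the listed genes or, had they been counted under another name, lost.

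The tests used edgeR 4.0.16 under R 4.3.3 (filterByExpr, TMM, quasi-likelihood fit of all 9 libraries with condition as the only term, Benjamini-Hochberg adjustment over 12575 genes, threshold 0.05). Intervals are 95% intervals of the fit, and they and the SDs include counting error. CPM uses TMM-scaled totals. For correlations, a prior count of 2 was added before the log2 of CPM. Gene positions and transcript lengths came from GENCODE vM21, in which 23376 of 24421 symbols matched directly and 645 by a synonym.

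The members, lists and tests were chosen with earlier results of these data known. Named genes were the members, the TEAD partners, Lats1, Stk3, Stk4, Sav1 and Nf2, up to 3 higher and 3 lower genes of each list with the smallest p and no overlap, and the 3 genes most like Ctgf or Yap1. One gene of the other targets entered the counts and is not reported here. Alternatives were RLE or library-size scaling, no or a stricter filter (10 counts in every library), 2 groups only, a replicate block, DESeq2 1.42.0, removal of GC and length trends (splines with 4 degrees of freedom), each library left out and, chosen after seeing the data, the share of Rn45s as a covariate. The procedure was tested on simulated data. No libraries of a condition agreed within sampling noise (chi-square per gene 3.90 to 19.7).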

Additional observations from a re-analysis of the deposited data

How the results depend on the processing

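Between 3D and 2D cultures with palmitate, the 7 targets and Wwtr1 kept direction and side of the threshold under all 18 alternatives, Ctgf between -4.10 and -3.92 and Wwtr1 between 0.85 and 1.02 on the log2 scale. With palmitate in 3D, Ctgf, Cyr61 and Amotl2 did so too, between 0.73 and 0.92, 0.66 and 0.89, and 0.51 and 0.61. These genes were chosen with their values in these libraries known. Nothing is therefore read from this stability or from the member counts given below. Values near 0 changed sign. With palmitate, Tead1 was 0.051 after removal of GC and length trends, 0.0013 with Rn45s in the fit and -0.084 to 0.025 with 1 library left out, and Yap1 was 0.017 after trend removal and -0.068 to 0.0065 with 1 library left out. Nf2 in 3D over 2D was -0.091 to 0.013 with 1 library left out. The 275 genes of the whole table past the threshold with palmitate were 617 without the filter, 987 after trend removal, 77 with only the 2 groups compared, 44 with Rn45s in the fit, and 71 to 1901 with 1 library left out, where only the fit without replicate 3 of the 2D cultures stayed within 1.5 times, at 200. The 0 other pathway genes past it were 1 with library-size scaling, 2 without the filter, 1 with DESeq2, 3 after trend removal, and 0 to 5 with 1 library left out (1 without replicate 1 and 5 without replicate 3 of the 3D cultures with palmitate). The cause of these shifts was not tested, and fits with a group or a library left out also held fewer libraries. With the replicate block the 275 genes were 111, and the members past the threshold stayed at 8 and 3. Deviations of same-numbered libraries of different conditions from their group means had correlations of -0.24 to 0.15. For libraries with other numbers they were -0.17 to 0.28. These values showed no pairing by number, but 9 same-numbered pairs are too few to exclude one. The counts of Edn1 and Vgll3 were low in every 3D library, at most 23 and 37. They were 2 and 8 in the smallest library, with 6595514 counts in all. Such low counts limit the precision for these genes.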
